A study of Mus musculus with 12 samples.

Results

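Transcripts of the insulin-like growth factor (IGF) and insulin receptor axis were followed in mouse fibroblasts pushed towards a heart muscle fate and in adult heart muscle cells. The 10 genes, taken by symbol, were the ligand Igf1, the receptors Igf1r, Igf2r and Insr, the docking proteins Irs1 and Irs2, and the secreted IGF binding proteins Igfbp3, Igfbp4, Igfbp5 and Igfbp7. They were found as 10 of 43629 gene identifiers, and all 10 were among the 15059 genes that passed the filter on low counts.

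RNA of 12 libraries was sequenced, 3 in each of 4 groups, all from C57BL/6 mice. Mouse embryonic fibroblasts (MEFs), primary connective tissue cells, had been treated for 3 weeks with an empty vector (E), with 4 transcription factors, which were Tbx5, Mef2c, Hand2 and Gata4 (GHMT), or with the same 4 and Akt1, the kinase named in the title of the study (AGHMT; the treatment note spells this group AGMT and gives the added factor as Akt). GHMT and AGHMT cells were sorted on an αMHC-GFP reporter, which is driven by the promoter of the cardiac myosin gene Myh6. E cells were not described as sorted, so the factors and the sort cannot be told apart in a comparison with E. Isolated adult ventricular cardiomyocytes (CM) were the fourth group. The labels give no batch and no age of the animals and do not say whether the 3 libraries of a group came from separate cultures or animals, so p-values measure the spread between these libraries only.

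IGF1 and IGF2 are secreted growth factors that act through the IGF1 receptor, a tyrosine kinase closely related to the insulin receptor. Activated receptors phosphorylate the docking proteins IRS1 and IRS2, which recruit PI3-kinase and so switch on Akt, the kinase added in this study. The IGF2 receptor, also the cation-independent mannose 6-phosphate receptor, removes IGF2 to lysosomes, and the binding proteins hold IGFs outside the cell and set how much reaches the receptors. In the heart this axis is known for its role in muscle cell growth and survival and in glucose uptake.

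The depth differed widely, with 1872558 to 2200815 gene reads per GHMT library, 14386407 to 18493989 per AGHMT library, 5120230 to 15952646 per CM library and 15971154 to 33552138 per E library. Levels are CPM, the reads of a gene set against the size of its library, after TMM scaling, a factor per library from a trimmed mean of log ratios, and 3 reads correspond to 1.56 to 3.93 CPM in GHMT and to at most 0.515 CPM elsewhere. The share of reads from mitochondrially encoded genes was 27.8% to 72.2% in GHMT, 36.6% to 42.7% in AGHMT, at most 7.36% in E, and 40.0% to 59.9% in CM. The mitochondrial gene mt-Nd6 alone took 43.1%, 3.34% and 14.0% of gene reads in GHMT 1, 2 and 3, and at most 2.55% in the other groups. Outside mitochondrially encoded genes, GHMT 1 held 612458 reads. Akt1, the check of the added factor, stood at 7.30 to 19.6 CPM in the AGHMT libraries, at 1.31, 13.5 and 13.7 CPM in GHMT and at 21.0 to 104 CPM in E. The ranges of AGHMT and GHMT overlapped (log2 fold change 0.34, SE 0.79, interval -1.34 to 2.02, adjusted p = 0.786). GHMT held 47 reads of Akt1 in all, and the interval covers both signs. The counts therefore neither show nor exclude a gain of Akt1, and "AGHMT-labelled" below names the libraries and not a measured Akt1 gain. Summed cardiomyocyte markers (8 genes) were 6.90 to 13.6 CPM in E, 650 to 1146 in GHMT, 3607 to 4066 in AGHMT-labelled and 21870 to 51844 in CM libraries, and summed fibroblast markers (10 genes) were 11890 to 14890, 5091 to 7376, 8763 to 9823 and 1020 to 1232 CPM in the same order. In bulk RNA of this kind, fewer cells of a type and less RNA per cell cannot be told apart.

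The promoters of the 3 genes that the results turn on are shown first, since these genes lie at the extremes of the pattern: Igf1r was low in every group other than E, and Igfbp4 and Igfbp5 differed between the AGHMT-labelled and the GHMT libraries. Each is the 250 bases before the RefSeq transcript start on GRCm38.p6, at chr7:67952007-67952256 on the + strand for Igf1r, chr11:99040994-99041243 on the + strand for Igfbp4 and chr1:72874866-72875115 on the - strand for Igfbp5. Capitals mark the GC box, searched as GGGCGG, in Igf1r and the TATA box, searched as TATAAA, in Igfbp4.
Igf1r: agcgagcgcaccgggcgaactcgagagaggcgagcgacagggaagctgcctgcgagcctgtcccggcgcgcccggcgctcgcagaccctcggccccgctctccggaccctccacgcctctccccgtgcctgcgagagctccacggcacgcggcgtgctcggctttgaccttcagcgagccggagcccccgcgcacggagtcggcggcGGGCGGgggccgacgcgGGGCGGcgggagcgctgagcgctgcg
Igfbp4: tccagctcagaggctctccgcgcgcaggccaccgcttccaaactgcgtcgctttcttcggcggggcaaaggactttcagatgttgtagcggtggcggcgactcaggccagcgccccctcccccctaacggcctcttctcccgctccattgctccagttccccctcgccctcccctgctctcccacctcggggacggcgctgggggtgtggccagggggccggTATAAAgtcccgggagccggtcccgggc
Igfbp5: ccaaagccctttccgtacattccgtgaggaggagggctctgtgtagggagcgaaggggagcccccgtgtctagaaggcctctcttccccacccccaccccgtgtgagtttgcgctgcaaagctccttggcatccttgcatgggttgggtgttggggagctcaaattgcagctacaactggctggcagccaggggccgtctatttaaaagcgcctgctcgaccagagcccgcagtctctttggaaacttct
The Igf1r window was 77.6% G and C with 42 CpG dinucleotides, the Igfbp4 window 69.2% with 22, and the Igfbp5 window 58.8% with 10, against a median of 52.4% over 32851 promoters. GC boxes in Igf1r lay 43 to 38 and 26 to 21 bases before the start, and the TATA box of Igfbp4 lay 28 to 23 bases before it. The RefSeq start of Igf1r lies upstream of the annotated gene start used below. Of all promoters of this length, 32.7% held the GC box letters on either strand and 12.4% held those of the TATA box. A forkhead motif, searched as TGTTTAC, was in 3.17% of promoters on either strand. The GATA motif, searched as AGATAA, was in 9.99%, the T-box motif, searched as AGGTGT, in 11.8%, and the MEF2 motif in 3.20%. None of these 4 was in any of the 9 member promoters that could be matched, which says only that these letters are not in these windows. No promoter was printed for Insr, which had no match.

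Between groups, the number of members past an adjusted p of 0.05 ranged from 2 to 7 of 10, and each count is set beside the share of all 15059 genes that passed. In AGHMT-labelled against GHMT libraries, Igfbp4 and Igfbp5 were higher and no member was lower, where 17.8% of all genes were called, 13.2% higher and 4.58% lower. In GHMT against E, 2 members were higher and 3 lower, where 52.6% of all genes were called, 19.8% higher and 32.9% lower. In AGHMT-labelled against E, 3 were higher and 3 lower, beside 46.5% of all genes, 21.9% higher and 24.6% lower. In CM against E, 1 was higher and 6 lower, beside 42% of all genes, 19.5% higher and 22.5% lower. In GHMT against CM, 4 were higher and 1 lower (58.6% of all genes, 23.8% higher and 34.7% lower), and in AGHMT-labelled against CM, 5 were higher and 1 lower (48.1%, 23.7% higher and 24.4% lower). Members whose 2 groups did not overlap in CPM numbered 3 in AGHMT-labelled against GHMT (45.9% of all genes), 5 in GHMT against E (59.5%), 7 in AGHMT-labelled against E (71.6%), 9 in CM against E (57.2%), 6 in GHMT against CM (58.6%) and 6 in AGHMT-labelled against CM (70.5%). The 6 of 10 members lower in CM against E and the 5 of 10 higher in AGHMT-labelled against CM lay above the shares of all genes, 22.5% and 23.7%. These shares were not tested, and the results below are about single genes. The median log2 fold change of the members in CM against E was -1.53, beside -0.26 for all genes. Comparisons that use the same E or CM libraries are not independent of each other, and their values are given side by side only.

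**Figure D1:**
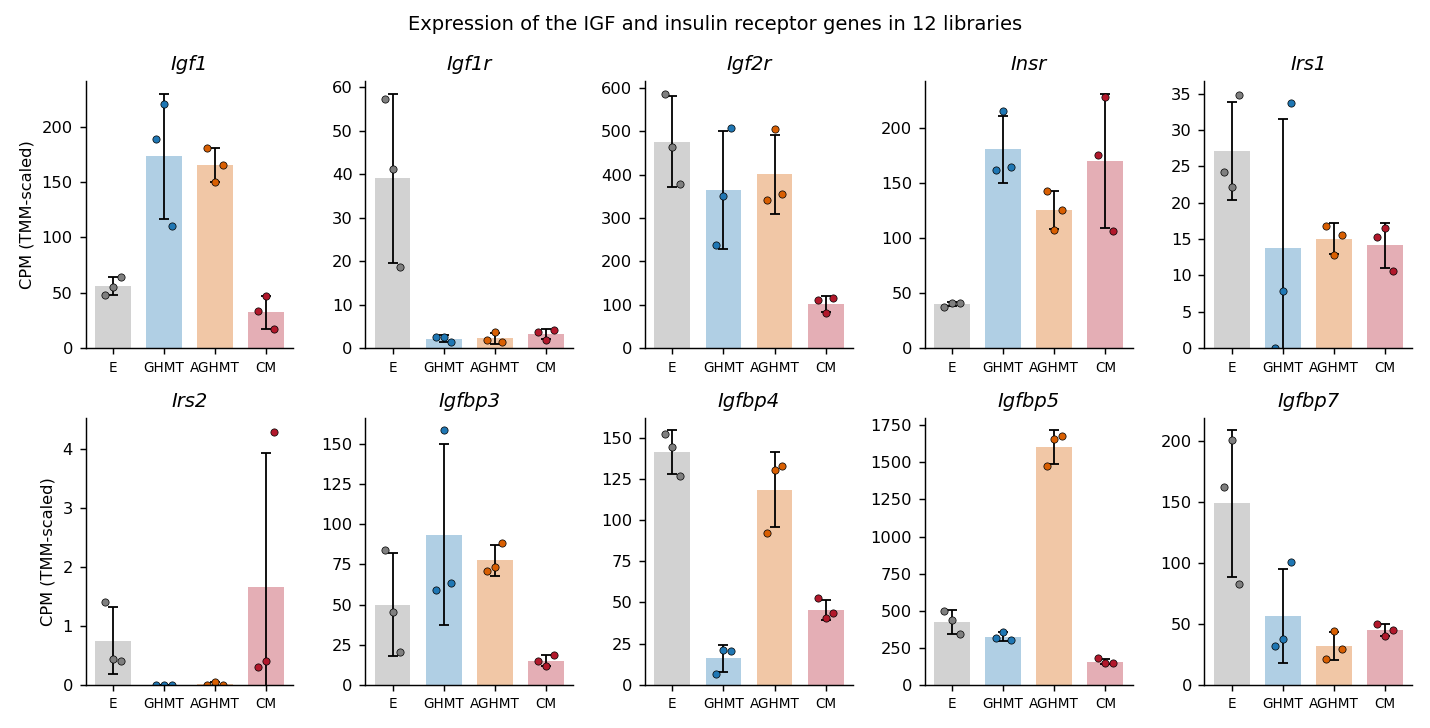
Levels of the 10 genes in TMM-scaled CPM, by group; points are the 3 libraries of a group, bars their mean and error bars the SD (cut at 0 where they reach below it). Igf1r stands at 18.6 to 57.3 CPM in E and at 4.12 CPM or less in the other 9 libraries, Insr is above E in all 9, and Igfbp5 reaches 1473 to 1679 CPM in the AGHMT-labelled libraries.

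Igf1, the ligand, was higher in both factor-treated groups than in fibroblasts or adult cardiomyocytes. The gene (ENSMUSG00000020053) lies on mm10 chromosome 10, from 87858265 to 87937042 on the + strand. It stood at 48.0, 55.5 and 64.1 CPM in E, 189, 220.4 and 111 CPM in GHMT, 181, 150.0 and 166 CPM in AGHMT-labelled and 33.7, 46.7 and 17.0 CPM in CM libraries. All 6 factor-treated libraries were above all 6 others, and the lowest of them was GHMT 3. The log2 fold change was 1.63 in GHMT against E (SE 0.37, adjusted p = 0.00227) and 1.57 in AGHMT-labelled against E (SE 0.36, adjusted p = 0.00359). Against CM it was 2.41 for GHMT (SE 0.38, adjusted p = 0.000116) and 2.35 for AGHMT-labelled libraries (SE 0.38, adjusted p = 0.000256).

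The 2 factor-treated groups could not be told apart for Igf1, with a log2 difference of -0.07 and a 95% interval of -0.83 to 0.70. CM lay below E in every library, yet the log2 fold change of -0.78 did not pass (adjusted p = 0.0969). The transcript of Igf1 has the lowest G and C content of the members, 38.0%, and genes of the lowest of 4 equal classes by this content had a median log2 fold change of 0.87 in GHMT against E and 0.91 in AGHMT-labelled against E. After a correction of each library for G and C content, Igf1 was 0.75 higher in GHMT than in E (adjusted p = 0.0182) and 0.32 higher in AGHMT-labelled libraries (adjusted p = 0.276), and the calls against CM held. Without E replicate 1 the value in GHMT against E was 0.91 (adjusted p = 0.091), and with total counts as the scale it was 0.22 in GHMT (adjusted p = 0.647) and 0.73 in AGHMT-labelled libraries (adjusted p = 0.153).

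Igf1r, the receptor of IGF1 and IGF2, was low in the factor-treated cells and in adult cardiomyocytes. This gene (ENSMUSG00000005533) spans chromosome 7 from 67952827 to 68233668 on the + strand. E libraries held 57.3, 41.1 and 18.6 CPM of Igf1r. GHMT libraries held 2.62, 2.61 and 1.37 CPM, AGHMT-labelled libraries 1.77, 3.74 and 1.42 CPM, and CM libraries 3.79, 1.81 and 4.12 CPM. Every E library was above every other library, and the lowest E library was more than 4 times the highest of the rest. The GHMT values rest on 2, 5 and 2 reads, under the 3 reads taken as the floor of a library in GHMT 1 and GHMT 3. AGHMT-labelled libraries held 117 reads in all and CM libraries 93, against 5252 in E.

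The log2 fold change of Igf1r against E was -4.16 in GHMT (SE 0.70, adjusted p = 0.000297), -4.07 in AGHMT-labelled libraries (SE 0.61, adjusted p = 0.000158) and -3.59 in CM (SE 0.60, adjusted p = 0.000218). These 3 calls held under all 25 alternative analyses, and after the correction for G and C content the values were -2.55, -3.78 and -3.36. Between the 3 low groups no difference passed: the log2 difference was 0.09 for AGHMT-labelled against GHMT (95% interval -1.43 to 1.61), -0.57 for GHMT against CM (-2.09 to 0.95) and -0.48 for AGHMT-labelled against CM (-1.69 to 0.73). The first 2 changed sign with that correction, to -1.23 and 0.81, and did not pass there either. At these read numbers such intervals leave room for a difference of either sign.

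Insr, the insulin receptor, went the other way. Its gene (ENSMUSG00000005534) lies on chromosome 8, from 3122061 to 3279617 on the - strand. E libraries held 37.6, 40.5 and 41.1 CPM, GHMT libraries 161, 215 and 164 CPM, AGHMT-labelled libraries 142, 107 and 126 CPM, and CM libraries 175, 228 and 106.5 CPM. The E values lay within 4 CPM of each other, and the lowest of the other 9 libraries was above 100 CPM. On the log2 scale Insr rose against E by 2.18 in GHMT (SE 0.31, adjusted p = 8.29e-05), 1.65 in AGHMT-labelled libraries (SE 0.31, adjusted p = 0.000764) and 2.10 in CM (SE 0.31, adjusted p = 6.97e-05).

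By mean, the order of Insr was GHMT, CM, AGHMT-labelled, E, and no difference among the first 3 passed. AGHMT-labelled libraries were all below the GHMT libraries, with a log2 difference of -0.53 (95% interval -1.17 to 0.11, adjusted p = 0.229) that passed under 4 of 25 alternatives. Against CM, with which they overlapped, they gave -0.44 (95% interval -1.08 to 0.19, adjusted p = 0.232), which passed under 6 of 25 alternatives, among them DESeq2 (-1.14, adjusted p = 2.69e-08). GHMT and CM overlapped (0.09, 95% interval -0.55 to 0.73), and their difference passed in opposite directions with DESeq2 (-0.46) and with the correction for G and C content (0.86). The call of Insr in CM against E held under all 25 alternatives. The calls in GHMT and AGHMT-labelled against E held under 24 of 25, and with total counts as the scale they were 0.82 (adjusted p = 0.0809) and 0.81 (adjusted p = 0.101).

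Because both receptors are read in the same library, their balance does not depend on the scaling between libraries. The balance was not corrected for G and C content, which is 46.8% for Insr and 49.4% for Igf1r. Their classes by this content had medians of -0.39 and -1.84 in GHMT against E, and 0.13 and -0.61 in AGHMT-labelled against E. Insr supplied 39.6%, 49.6% and 68.9% of the reads of both genes in E 1, E 2 and E 3, with Wilson 95% intervals of 38.3% to 40.9%, 47.6% to 51.6% and 66.8% to 70.9%. It supplied 98.4%, 98.8% and 99.2% in GHMT, 98.8%, 96.6% and 98.9% in AGHMT-labelled and 97.9%, 99.2% and 96.3% in CM libraries. Such intervals cover counting error only, and the 3 E libraries differed from each other by more than that. Per length of annotated exons, Insr was 0.80, 1.20 and 2.70 times Igf1r in E and 31.6 to 154 times Igf1r in the other 9 libraries. Both receptors were therefore at like levels in the empty-vector fibroblasts, while nearly all reads of the pair came from Insr in sorted factor-treated cells and in adult cardiomyocytes.

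**Figure D2:**
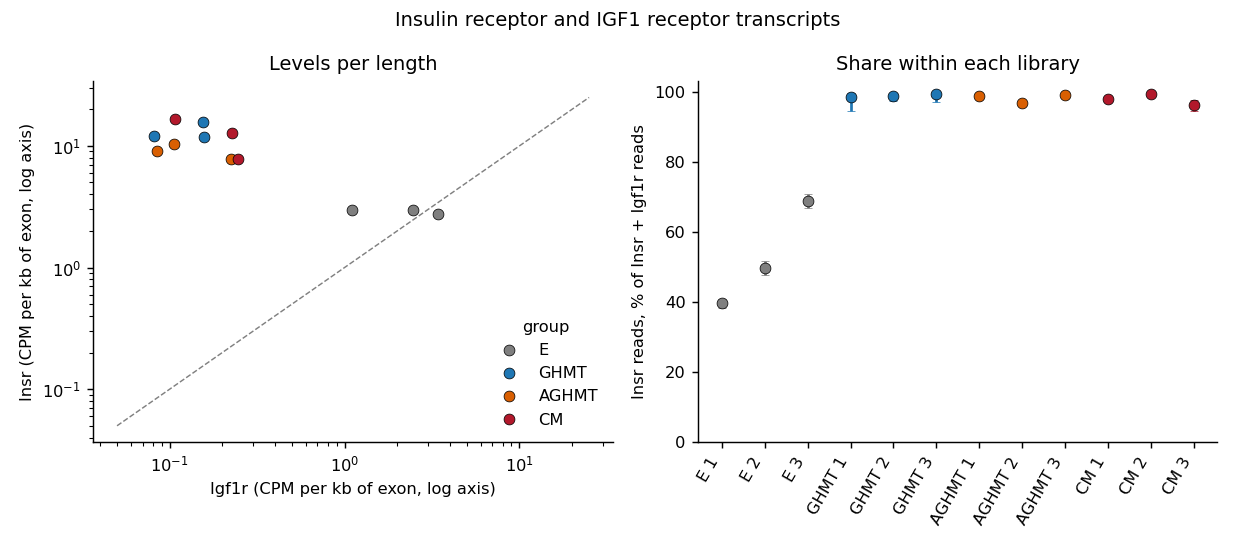
Left, Insr against Igf1r in CPM per kb of exon, both on log axes, with 1 point per library coloured by group and a dashed line of equal levels; right, Insr as a percentage of Insr and Igf1r reads in each library, with Wilson 95% intervals. E libraries lie near the line, at 39.6% to 68.9%, and all 9 other libraries are at 96.3% or more.

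Of the 4 groups, adult cardiomyocytes had the lowest level of Igf2r, the receptor that clears IGF2. The gene (ENSMUSG00000023830) lies on chromosome 17, from 12682406 to 12769664 on the - strand. It stood at 587, 464 and 378 CPM in E, 237, 351 and 509 CPM in GHMT, 341, 505 and 356 CPM in AGHMT-labelled and 111, 80.8 and 115 CPM in CM libraries. The first 3 groups overlapped, and all 3 CM libraries were below them. Igf2r fell by 2.22 on the log2 scale in CM against E (SE 0.33, adjusted p = 7.49e-05), and was higher than in CM by 1.84 in GHMT (SE 0.33, adjusted p = 0.000313) and by 1.97 in AGHMT-labelled libraries (SE 0.33, adjusted p = 0.000332). Each of these calls held under all 25 alternatives. GHMT against E gave -0.38 (adjusted p = 0.319). With total counts as the scale it was -1.69 (adjusted p = 0.0112). After the correction for G and C content it turned to 1.75 (adjusted p = 1.26e-05), so it passed in opposite directions.

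Of the docking proteins, Irs2 carried few reads in every group and Irs1 few in GHMT, 64 in all. Irs1 (ENSMUSG00000055980; chromosome 1, 82233101 to 82291416, - strand) stood at 24.2, 22.2 and 34.8 CPM in E, 16.8, 12.8 and 15.6 CPM in AGHMT-labelled and 15.3, 16.5 and 10.7 CPM in CM libraries. GHMT spread from no read in GHMT 1, where 3 reads would be 3.93 CPM, through 7.82 to 33.7 CPM. No comparison of Irs1 passed as tested. The values of AGHMT-labelled and CM libraries were all below E, with log2 fold changes of -0.85 (adjusted p = 0.328) and -0.93 (adjusted p = 0.302). With only the 2 groups fitted these were -0.83 (adjusted p = 0.0158) and -0.99 (adjusted p = 0.0427). Without GHMT replicate 3, Irs1 in GHMT against E was -2.51 (adjusted p = 0.00888), so that value leans on 1 library. With total counts as the scale and all libraries it was -2.14 (adjusted p = 0.0483).

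Irs2 (ENSMUSG00000038894; chromosome 8, 10984681 to 11008458, - strand) held 84, 13 and 13 reads in E, 4, 4 and 25 in CM, 1 in all AGHMT-labelled libraries and none in GHMT. The largest shares were in E 1 and CM 3. From the pooled reads, AGHMT-labelled libraries held 0.0224 times the level of E, with a counting interval of 0.000562 to 0.128, and 0.0179 times that of CM (0.00044 to 0.107). Both differences passed (adjusted p = 0.0138 and 0.00509), the first not without AGHMT replicate 1, AGHMT replicate 3 or E replicate 1 (adjusted p = 0.0563, 0.0775 and 0.0691). The absence of reads in GHMT allows, by its counting interval, a level of up to 1.006 times that of E and 0.835 times that of CM. Neither comparison passed, and that with CM did so under 7 of 21 alternatives. CM and E overlapped. The counting intervals pool the reads of a group and leave out the spread between its libraries, so they are too narrow for group levels.

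Igfbp4 and Igfbp5 were the 2 members called between the factor-treated groups, and the other 2 binding proteins were not. Igfbp5, which binds IGFs in the extracellular matrix, was highest in the AGHMT-labelled libraries. The gene (ENSMUSG00000026185) lies on chromosome 1, from 72857932 to 72874884 on the - strand. AGHMT-labelled libraries held 1473, 1656 and 1679 CPM, GHMT libraries 315, 358 and 299 CPM, E libraries 498, 437 and 341 CPM, and CM libraries 178, 147 and 146 CPM. Each AGHMT-labelled library was above all 9 others, and each CM library below all others.

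Igfbp5 was 2.31 higher on the log2 scale in AGHMT-labelled than in GHMT libraries (SE 0.26, adjusted p = 0.00017), 1.91 higher than in E (SE 0.25, adjusted p = 4.36e-05) and 3.35 higher than in CM (SE 0.27, adjusted p = 5.91e-07). All 3 calls held under all 25 alternatives. The correction for G and C content lowered the first to 0.75 (adjusted p = 0.0203) and left the second at 2.34 and the third at 3.62. In CM against E the value was -1.44 (SE 0.25, adjusted p = 0.00026). GHMT against E did not pass (-0.39, adjusted p = 0.182), passed under 9 of 25 alternatives and turned to 1.59 with that correction. GHMT was 1.04 higher than CM (adjusted p = 0.00252), a call lost under 7 of 25 alternatives, among them the fits without AGHMT replicate 3 (0.55, adjusted p = 0.112) and without E replicate 1 (0.56, adjusted p = 0.0631).

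Igfbp4, a binding protein that the protease PAPP-A cleaves to release IGF, was low in GHMT. The gene (ENSMUSG00000017493) lies on chromosome 11, from 99041244 to 99054392 on the + strand. It stood at 6.55, 20.8 and 20.6 CPM in GHMT, 92.3, 131 and 133 CPM in AGHMT-labelled, 52.4, 40.6 and 43.6 CPM in CM and 152, 145 and 127 CPM in E libraries. The GHMT values, from 75 reads in all, lay below every other library, and AGHMT-labelled and E libraries overlapped. AGHMT-labelled libraries were 2.82 higher than GHMT on the log2 scale (SE 0.38, adjusted p = 0.000504), under all 25 alternatives and by 1.37 after the correction for G and C content (adjusted p = 0.0189).

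Against E, Igfbp4 gave -3.08 in GHMT (SE 0.38, adjusted p = 2.32e-05), -0.25 in AGHMT-labelled libraries (95% interval -0.96 to 0.45, adjusted p = 0.549; 0.93 and adjusted p = 0.0512 after the correction) and -1.63 in CM (SE 0.34, adjusted p = 0.00126). Its transcript is in the class of genes richest in G and C, whose median in GHMT against E was -3.22, and after the correction the value in GHMT was -0.44 (adjusted p = 0.398). Against CM, GHMT was lower (-1.44, adjusted p = 0.00394) and AGHMT-labelled libraries higher (1.38, adjusted p = 0.00451). The first turned to 1.21 after that correction. The second lost its call with DESeq2's size factors (0.63, adjusted p = 0.102) and with limma on the deposited values (0.63, adjusted p = 0.19).

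Igfbp3, the main carrier of IGFs in blood, was lowest in adult cardiomyocytes. This gene (ENSMUSG00000020427; chromosome 11, 7206086 to 7213923, - strand) stood at 84.2, 45.3 and 20.3 CPM in E, 59.0, 158 and 63.2 CPM in GHMT, 70.9, 73.2 and 88.3 CPM in AGHMT-labelled and 14.9, 11.5 and 18.7 CPM in CM libraries. No CM library reached the lowest of the other 9, and E, GHMT and AGHMT-labelled libraries overlapped. Igfbp3 was higher than in CM by 2.65 in GHMT (SE 0.51, adjusted p = 0.000621) and by 2.37 in AGHMT-labelled libraries (SE 0.50, adjusted p = 0.00187), both under all 25 alternatives. CM against E gave -1.73 (SE 0.49, adjusted p = 0.0103), a call lost without E replicate 1 (-1.21, adjusted p = 0.0775) and under 3 other alternatives. GHMT and AGHMT-labelled libraries did not pass against E, at 0.92 (adjusted p = 0.119) and 0.63 (adjusted p = 0.287), and reached 3.44 and 1.60 after the correction for G and C content (adjusted p = 6.92e-06 and 0.00225).

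Igfbp7, a related secreted protein that binds IGFs weakly, had its highest mean in E. The gene (ENSMUSG00000036256; chromosome 5, 77349240 to 77408041, - strand) stood at 163, 201 and 83.1 CPM in E, 31.5, 37.5 and 101 CPM in GHMT, 21.1, 43.9 and 29.7 CPM in AGHMT-labelled and 50.1, 40.4 and 45.2 CPM in CM libraries. E overlapped with GHMT through GHMT 3, and not with the other groups. The log2 fold change against E was -1.38 in GHMT (SE 0.46, adjusted p = 0.021), -2.24 in AGHMT-labelled libraries (SE 0.46, adjusted p = 0.00167) and -1.72 in CM (SE 0.45, adjusted p = 0.00666). Its transcript has the highest G and C content of the members, 58.8%. The correction turned the GHMT value to 1.64 (adjusted p = 0.0271) and brought the AGHMT-labelled value to -0.45 (adjusted p = 0.514). The GHMT call was also lost without E replicate 2, GHMT replicate 1 or GHMT replicate 2 (adjusted p = 0.0865, 0.0751 and 0.09), and the CM call with limma on the deposited values (-1.23, adjusted p = 0.0704) and with the replicate block and G and C correction together (-1.49, adjusted p = 0.0519).

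**Figure D3:**
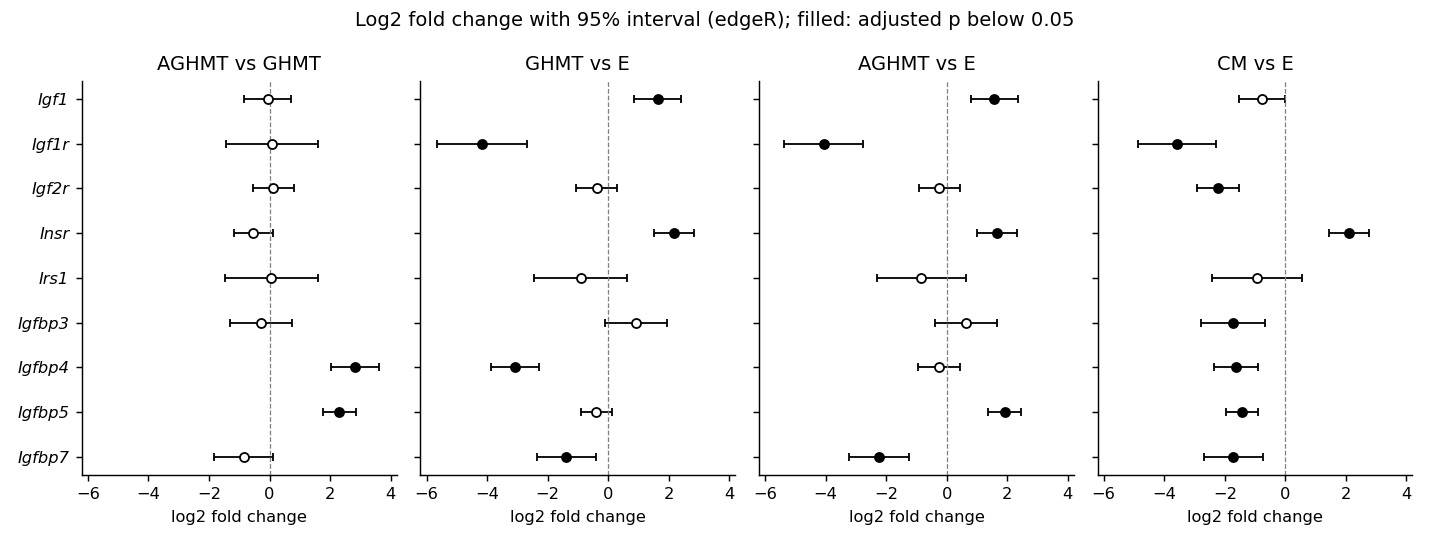
Log2 fold change of 9 members in 4 comparisons, with 95% intervals from edgeR's quasi-likelihood test; filled points passed an adjusted p of 0.05, and Irs2 is left out because its few reads give no useful interval. Igfbp4 and Igfbp5 are the filled points in AGHMT against GHMT, and Igf1r lies between -4.16 and -3.59 in each comparison with E.

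Within each library, the make-up of the 4 binding protein transcripts was different in the AGHMT-labelled group. Per exon length, Igfbp5 made up 75.5% to 80.1% of the 4 genes there, 31.5% to 53.1% in GHMT, 31.3% to 34.7% in CM and 25.5% to 35.3% in E. Igfbp7 made up 5.69% to 9.94% in AGHMT-labelled libraries, 21.2% to 52.8% in GHMT, 47.2% to 48.2% in CM and 42.8% to 58.0% in E. The CM shares lay within or close to the E shares for Igfbp5 and Igfbp7, although all 4 genes were called lower in CM than in E and had log2 fold changes below 0 there under all 25 alternatives. Igfbp5 reads were 12.7 to 15.96 times Igfbp4 reads in AGHMT-labelled libraries and 14.5 to 48.0 times in GHMT, against 2.69 to 3.27 times in E and 3.34 to 3.63 times in CM. On this ratio the 2 factor-treated groups overlapped, and both were above E and CM. These shares and ratios were not corrected for G and C content. It was 50.3% in Igfbp5, 52.5% in Igfbp3, 55.05% in Igfbp4 and 58.8% in Igfbp7. With the correction, their log2 fold changes in GHMT against E were 1.59, 3.44, -0.44 and 1.64 in that order. In AGHMT-labelled against E they were 2.34, 1.60, 0.93 and -0.45. The part of G and C content in the shares was not tested.

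**Figure D4:**
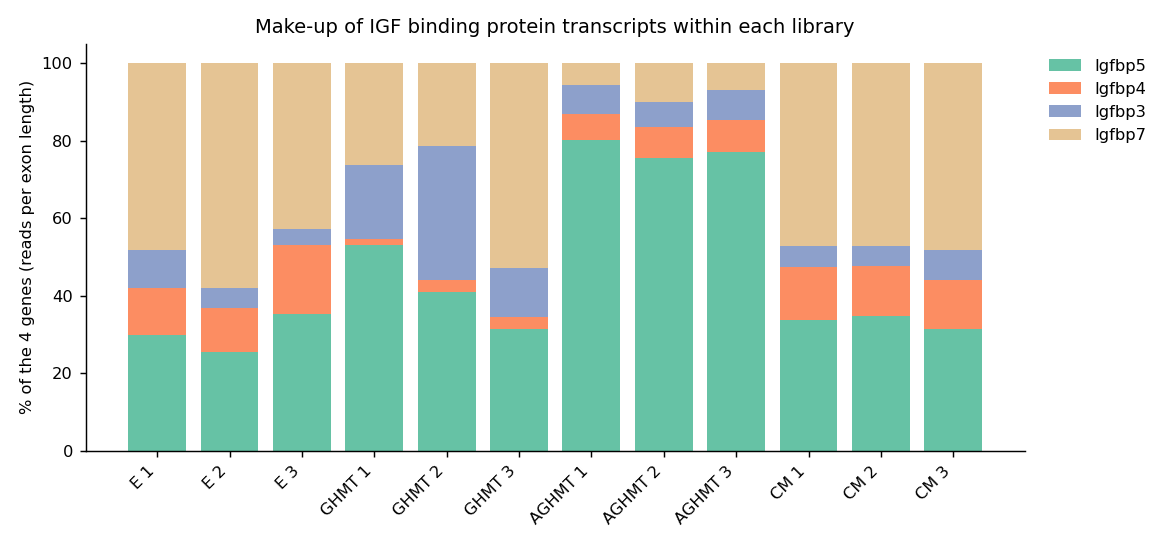
Share of Igfbp5, Igfbp4, Igfbp3 and Igfbp7 among their summed reads per exon length, in percent, with 1 stacked bar per library. Igfbp5 fills 75.5% to 80.1% of the bars of the AGHMT-labelled libraries and 25.5% to 53.1% of the others. The shares are not corrected for G and C content.

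The content of G and C moved with the fold changes of all genes in the factor-treated groups. From the poorest to the richest of 4 equal classes of genes, the median log2 fold change went from 0.87 through -0.39 and -1.84 to -3.22 in GHMT against E, and from 0.91 through 0.13 and -0.61 to -1.88 in AGHMT-labelled against E. In CM against E it stayed between -0.44 and 0.11. In AGHMT-labelled against GHMT it went from -0.07 to 1.20. Set against the median of its own class, Igf1r was lower and Insr higher in each of the 3 comparisons with E. With the correction, 6 members passed in AGHMT-labelled against GHMT: Igfbp4 and Igfbp5 higher, and Igf2r, Insr, Igfbp3 and Igfbp7 lower. Of all 15059 genes, 4684 were called there, 19.3% of these calls were higher, and the median log2 fold change was -0.45. The part that G and C content plays in the fold changes of single genes was not tested.

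**Figure D5:**
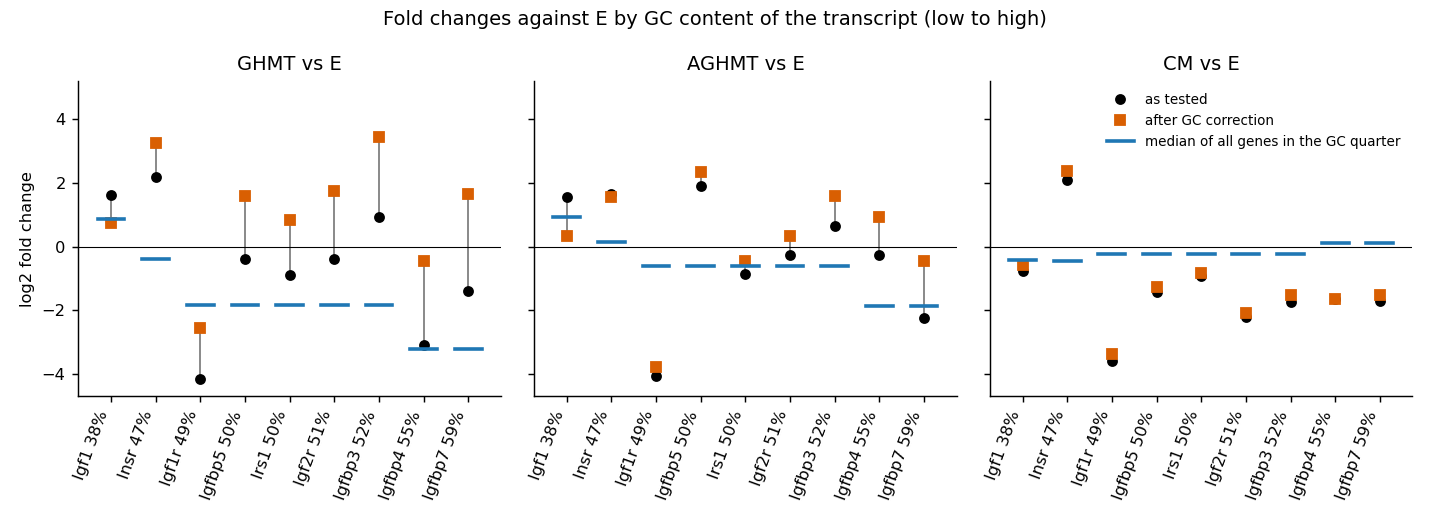
Log2 fold change against E of 9 members (Irs2 left out), ordered by the G and C content of their longest transcript, as tested (circles) and after correction (squares), with the median of all genes in the same of 4 classes of this content (blue bars). In GHMT against E the blue bars run from 0.87 to -3.22, and Igf1r and Insr keep their direction in all 3 panels.

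Summed markers of other cell types also differed between the groups. In GHMT 3 reads correspond to 1.56 to 3.93 CPM, so low sums there rest on few reads. A marker without a read in GHMT need not be absent. Summed macrophage markers (10 genes) were 2.62 to 11.7 CPM in GHMT, with Cd68, Adgre1, C1qa and C1qb at no read, 16.1 to 42.0 in E, 71.4 to 137 in AGHMT-labelled and 177 to 252 in CM libraries. Endothelial markers (10 genes) were 2.62 to 12.5 CPM in GHMT, with Egfl7 and Cldn5 at no read, 10.04 to 13.4 in E, with Cldn5 and Vwf at no read, 69.7 to 81.5 in AGHMT-labelled libraries, with Cldn5 at no read, and 546 to 746 in CM. Mural cell markers (4 genes) were 13.1 to 114 CPM in GHMT, with Notch3 at no read, 49.7 to 105 in E, 376 to 443 in AGHMT-labelled and 572 to 1259 in CM libraries. Mast cell markers (7 genes) were 311 to 340 CPM in AGHMT-labelled libraries, with Tpsb2 at no read, 65.5 to 162 in GHMT, where 6 of 7 had no read, 0.485 to 1.25 in E, with Tpsb2 and Fcer1a at no read, and 7.21 to 10.4 in CM, with Ms4a2 at no read. In AGHMT-labelled against GHMT libraries, 5 of 10 macrophage, 6 of 9 tested endothelial, 3 of 4 mural and 2 of 3 tested mast cell markers were called higher, in the same direction as Igfbp4 and Igfbp5. So were 3 of 10 fibroblast markers, with 1 lower, and 3 of 8 cardiomyocyte markers. Of all genes, 13.2% were called higher and 4.58% lower, so most calls in this comparison had that direction. The part of these cell types in the results for Igfbp4 and Igfbp5 was not tested.

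Of 39 further genes of the pathway, listed by role, 31 could be tested. Values of these further genes are as tested, without the correction for G and C content, and no alternative is given for them. Several calls of the members changed with that correction, so the calls of these genes are not firmer than those of the members. In AGHMT-labelled against GHMT libraries 1 of the 31 was called higher and 2 lower, beside 13.2% and 4.58% of all genes. In GHMT against E 6 were higher and 10 lower (19.8% and 32.9% of all genes). The counts were 7 and 11 in AGHMT-labelled against E (21.9% and 24.6%) and 5 and 15 in CM against E (19.5% and 22.5%). Against CM, 12 were higher and 7 lower in GHMT (23.8% and 34.7%). In AGHMT-labelled against CM they numbered 11 and 5 (23.7% and 24.4%). These shares were not tested.

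Igf2, the fetal growth factor and second IGF ligand, stood at 623 ± 46.7 CPM in E, 7989.9 ± 455 in GHMT, 2518 ± 508 in AGHMT-labelled and 89.0 ± 12.8 in CM libraries (mean ± SD, n = 3). It rose by 3.68 on the log2 scale in GHMT (SE 0.27) and by 2.01 in AGHMT-labelled libraries (SE 0.25, adjusted p = 2.9e-05) against E, was lower in AGHMT-labelled than in GHMT libraries (-1.67, SE 0.25, adjusted p = 0.00108), and fell by 2.81 in CM against E (SE 0.26). Ins1, Ins2 and Igfbp1 had no read in any library. Igfbp2, a further binding protein, averaged 4.66 ± 4.12 CPM in E (n = 3), where most of its reads lay, and had no read in CM. Pappa, which encodes PAPP-A, the protease of IGFBP4, averaged 361 ± 77.4 CPM in E, 97.0 ± 28.5 in GHMT, 98.1 ± 3.91 in AGHMT-labelled and 1.40 ± 0.772 in CM libraries (n = 3). Its log2 fold change against E was -1.90 in GHMT (adjusted p = 0.000667), -1.88 in AGHMT-labelled libraries (adjusted p = 0.000862) and -7.92 in CM.

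Ide, the insulin-degrading enzyme, was higher than in E by 1.53 in GHMT (adjusted p = 0.000826) and by 0.79 in AGHMT-labelled libraries (adjusted p = 0.0377). Grb10, an adaptor that dampens signalling from both receptors, averaged 546 CPM in E and was lower in GHMT (-1.64, adjusted p = 0.000312), AGHMT-labelled (-0.93, adjusted p = 0.0125) and CM libraries (-2.32, adjusted p = 1.2e-05). Crk, an adaptor protein, passed against E in CM alone (-1.06, adjusted p = 0.0213). Enpp1, a membrane enzyme that can inhibit the insulin receptor, was higher in AGHMT-labelled than in GHMT libraries (2.88, SE 0.72, adjusted p = 0.0154), where GHMT held 5 reads in all. Igf2bp1, Igf2bp2 and Igf2bp3, which bind Igf2 and other messenger RNAs, were all lower in CM than in E. Igf2bp2 averaged 56.6 CPM in E and 3.94 in CM (-3.85, adjusted p = 0.000945), and Igf2bp3 was lower in AGHMT-labelled than in GHMT libraries (-1.86, SE 0.44, adjusted p = 0.0119).

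As a description of likeness, the genes with the highest Pearson r to each member were sought over the 12 libraries among 5974 genes; such values follow the split into 4 groups, the scaling and the base composition that libraries share. For Igf1r these were Serpinf1 and Fkbp10 (r = 0.977 each) and Anxa2 (0.9753), which averaged 268, 90.2 and 858 CPM in E and 5.51, 4.25 and 18.0 CPM in GHMT. For Insr they were Aldh6a1 (0.983), Ifi203 (0.981) and Pkp2 (0.979), the last a desmosome protein that averaged 18.6 CPM in E, 185 in GHMT, 118 in AGHMT-labelled and 160.0 in CM libraries. For Igf1 they were Trim44 and Zc3h12c (0.985 each) and Tmem68 (0.983), and for Igf2r Mical2 (0.965), Creb3l1 (0.965) and H19 (0.964). Nucb2 (0.970), Bcap31 (0.964) and Sec16a (0.962) were most like Igfbp4, and Lipa (0.951), Dync1li2 (0.922) and Abat (0.918) most like Igfbp5. Zfp516 (0.967), Adamtsl1 (0.945) and App (0.932) were most like Igfbp3, and Cdk4 (0.928), Tent4a (0.919) and Arhgdib (0.908) most like Igfbp7. The docking proteins were nearest to Cntrl (0.997), Alkbh1 (0.990) and Metap1 (0.986) for Irs1 and to Gsn (0.961), Gpi1 (0.955) and Flnc (0.951) for Irs2. Irs1 had no read in GHMT 1, and Irs2 had none in GHMT and 1 in all AGHMT-labelled libraries. Libraries without reads can raise r by themselves, so these high values are no sign of shared regulation. Their part in r was not tested. Among the members, Igf1r and Insr had r = -0.914 and Igf1r and Igfbp7 r = 0.804 (n = 12 libraries), while Igfbp4 and Igfbp5, the pair that was higher in AGHMT-labelled than in GHMT libraries, had r = 0.492.

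The annotation places other genes on the opposite strand of several members: Igf1os at Igf1, Airn at Igf2r and Gm16180 at Insr without shared exon bases, and Gm9747 at Irs1, 9530052E02Rik at Irs2 and Polr2b at Igfbp7 with 2822, 162 and 85 shared exon bases. Where the counting ignored strand, reads of such pairs cannot be told apart.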

How the data were processed

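Per the labels, Trizol served for extraction and a stranded TruSeq kit for the libraries. Per the submitters' processing notes, the tools were Bowtie2 2.0.6, HTSeq and DESeq, with build mm10; how strand was treated in counting is not given in the sources used here. Raw counts of reads per Ensembl gene were deposited. Also deposited was a table of normalized signal, the authors' counts divided by a size factor per library; division by each column's smallest value gave whole numbers for 100% of values (tolerance 0.001), with totals equal to the count files in 12 of 12 libraries. Rows that name no gene were left out; reads in no gene were 8.62% to 20.7% of gene reads and such reads together.

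Counts were filtered with filterByExpr (minimum count 10, minimum total 15) and tested with edgeR 4.0.16's robust quasi-likelihood test (R 4.3.3), TMM scaling, 1 fit of all 12 libraries and Benjamini-Hochberg adjustment over 15059 genes (threshold 0.05). SE is the absolute log2 fold change over the root of F, and intervals are 95%. Symbols, positions and G and C content came from GENCODE M21, promoters from RefSeq. The alternatives numbered 25: 12 fits without 1 library, other scalings (DESeq2's size factors, total counts, no mitochondrially encoded genes), no filter or a stricter one, DESeq2 1.42.0, limma 3.58.1 on log2 of deposited values plus 1, thinning to 1 depth, a block for the replicate number, fits of just 2 groups, edgeR on the recovered reads (chosen after seeing the data), and, with and without the block, a correction by lowess (span 0.3) on the G and C content of the longest transcript, known for 99.5% of genes. Replicates differed beyond counting error (chi-square per degree of freedom at least 13.4). In data simulated for AGHMT against GHMT (14153 genes), the test recovered 23% of 4-fold and 72% of 16-fold changes. Far fewer genes were changed there than were called in the real data, and E, GHMT and CM did not differ. The adjustment over all genes is then stricter, so these shares need not hold for the real comparison.

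The members, lists and tests were chosen with earlier results of these data known. Named are all members, their 3 most alike genes, per role the pathway gene with the highest mean CPM and those that passed in AGHMT against GHMT, Akt1, and marker lists as sums and counts; Igf2bp1, Ins1, Ins2, Igfbp1 and marker genes without reads were named after their values were seen, as were the GC and TATA boxes.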

Additional observations from a re-analysis of the deposited data

How the results depend on the processing

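Over all alternatives, 1386 of the members' values kept their side of the threshold with no call changing sign, 48 gained a call, 32 lost one, and 11 that were called in either fit turned. Values called in neither fit could change sign within the 1386. With the correction for G and C content, and with it and the replicate block, 6 members were called in AGHMT against GHMT (2 as tested). Of all genes, 4684 were called there with the correction alone (2682 as tested). Among values called in either fit, Igf2r turned in AGHMT against GHMT (-1.42 and -1.41) and in GHMT against E (1.75 and 1.74). Igfbp4 turned in GHMT against CM (1.21 and 1.14), and Igfbp5 (1.59 and 1.56) and Igfbp7 (1.64 and 1.69) in GHMT against E. Akt1 turned in GHMT against E (0.56 and 0.44), GHMT against CM (1.26 and 1.15) and AGHMT against CM (0.56 and 0.49). Values called in neither fit also changed sign with the correction, among them Irs1 in GHMT against E (0.82) and Igfbp7 in AGHMT against CM (1.08). DESeq2 turned Insr in GHMT against CM (-0.46). The cause was not tested.

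Leaving out 1 library, 2 members were called in AGHMT against GHMT each time, 4 to 6 in GHMT against E, 5 to 6 in AGHMT against E, 6 to 8 in CM against E, 5 to 6 in GHMT against CM and 6 each time in AGHMT against CM. The replicate block changed no member's call: 2, 5, 6, 7, 5 and 6 members were called, as without it. Correlations of same-numbered libraries, in their deviations from the group mean, ran from -0.719 to 0.130, so the numbers are not taken to pair the samples. Some libraries with different numbers were more alike, with 0.789 for CM 3 and E 1 and 0.769 for CM 2 and E 3, beside -0.759 for CM 2 and E 1. What these libraries share was not tested.

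Of all genes in AGHMT against GHMT, 2682 were called as tested, 1355 with the block, 1740 with only the 2 groups fitted, 4944 with limma, 4684 with the G and C correction, 1651 after thinning, 2678 on the recovered reads, 1377 without AGHMT replicate 1, 1037 without AGHMT replicate 2 and 4073 without E replicate 1. In AGHMT against E these were 6998 as tested and 4522, 4238 and 4356 without AGHMT replicate 1, AGHMT replicate 3 and E replicate 1; thinning gave 3467 there, 5155 in GHMT against E (7927 as tested), 3453 in CM against E (6319), 5502 in GHMT against CM (8821) and 3844 in AGHMT against CM (7244), and only the 2 groups fitted gave 4980 in GHMT against CM. The share of calls that were higher was 74.3% in AGHMT against GHMT, 37.6% in GHMT against E, 47.0% in AGHMT against E, 46.4% in CM against E, 40.7% in GHMT against CM and 49.4% in AGHMT against CM; with total counts it was 95.4%, 12.04%, 23.3%, 22.7%, 32.9% and 56.1%, with DESeq2's size factors 63.7%, 33.7%, 37.5%, 58.3%, 30.5% and 28.7%, without mitochondrially encoded genes 90.4%, 33.1%, 54.9%, 55.3%, 32.1% and 46.7%, and with the G and C correction 19.3%, 72.3%, 52.8%, 50.9%, 66.4% and 47.0%. Total counts moved the median of all genes in GHMT against E from -1.06 to -2.38. The GHMT depth limits Igf1r, Irs1 and Irs2; Irs2 could not be tested after thinning.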
